A study of Mus musculus with 6 samples.

Results

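The genes described here are 10 early response genes that act as feedback on the ERK (MAP kinase) pathway or are induced by stress: Dusp1, Dusp4, Dusp5, Dusp6, Spry2, Spry4, Ier2, Ier5, Btg2 and Gadd45b. They were chosen by name, with earlier results of these data known, and all 10 were found among the 38561 genes of the deposited count table. RNA bound to phosphorylated ribosomal protein S6 was precipitated from dissected vomeronasal organs of male mice of the outbred CD-1 stock and then sequenced. Of the 6 libraries, 3 followed exposure to pups and 3 a control exposure; the labels give neither what that was nor the ages of the animals. Neither group carried a transgene or a drug that the labels name, and whether a library came from 1 animal or from several is not stated, so the p-values cover the spread among these libraries alone, part of which may be technical.

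The vomeronasal organ is the part of the nose in which sensory neurons detect pheromones. When a neuron fires or a growth factor binds its receptor, ERK is switched on and, with CREB and serum response factor, turns on immediate early genes within minutes. Among them are genes that shut the pathway down again: the DUSP phosphatases remove phosphate from ERK and its relatives, and the Sprouty proteins block the signal between receptor and Ras. Ribosomal protein S6 is itself phosphorylated by kinases that lie below mTORC1 and below ERK, which is why the precipitate is used to sample cells that have recently been active.

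Totals ran from 10590716 to 11240065 counts in the control libraries and from 18199476 to 20871266 in the pup libraries, so depth was separated by group. Obp2a, a secreted odorant-binding protein of nasal glands, took 9.38% to 26.0% of the counts of a library, and the scaling factors (TMM, the trimmed mean of M values) ran from 0.605 in control exposure replicate 3 to 1.39 in pup exposure replicate 2. Levels are given as CPM, the usual scale of reads relative to library size, with TMM factors applied. The 10 genes together had 1209 to 2290 counts per control library and 4706 to 11103 per pup library. Of the vomeronasal neuron markers, Omp stood at 664 to 922 CPM, Gnai2 (apical neurons) at 145 to 432 CPM and Gnao1 (basal neurons) at 37.0 to 107 CPM, while Trpc2 was not matched to a row.

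All 10 genes passed the filter on low counts and were tested. None was called in either direction by edgeR's quasi-likelihood test at a Benjamini-Hochberg adjusted p of 0.05 over all 15498 genes tested, and 0 genes in all (percent called 0) passed in that fit. DESeq2 and limma-voom also called 0 of the 10. The log2 fold change of pup exposure over control exposure was positive for 9 of the 10 genes, against 51.5% of all genes tested. Their median log2 fold change was 0.84 and that of all genes 0.030. Before adjustment, only Btg2 had a p under 0.05 in edgeR (1 of 10 higher and 0 lower, against 6.31% of all genes higher and 4.67% lower). In 2 of the 10, Dusp4 and Dusp5, every pup library lay above every control library, which was so for 10.1% of all genes, and in 0 of them below every control library (9.6% of all genes).

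Short stretches before the RefSeq starts of 3 of the genes show the DNA elements through which CREB and serum response factor are known to act on early genes. The 250 bases before the annotated RefSeq start were searched on both strands in 7 of the genes (Btg2, Dusp1, Dusp5, Dusp6, Gadd45b, Ier5 and Spry2). Dusp4, Ier2 and Spry4 were not searched, so the shares of the 7 windows leave them out. The stretches below come from RefSeq's GRCm38.p6 sequence, are written 5′ to 3′ on the strand of the gene, and hold no exon of that gene in the GENCODE M21 annotation. That of Dusp1 lies before its RefSeq start but inside the longer gene of GENCODE M21 (26505590 to 26562128). Capitals mark the full cAMP response element (TGACGTCA), its part TGACG or the reverse complement, and the serum response element known as the CArG box.
Btg2, chr1:134079300-134079366, minus strand: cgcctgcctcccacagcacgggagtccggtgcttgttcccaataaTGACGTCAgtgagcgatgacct
Dusp1, chr17:26508594-26508708, minus strand: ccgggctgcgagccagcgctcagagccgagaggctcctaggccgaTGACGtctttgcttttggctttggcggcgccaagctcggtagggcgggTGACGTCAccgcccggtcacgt
Dusp5, chr19:53529018-53529108, plus strand: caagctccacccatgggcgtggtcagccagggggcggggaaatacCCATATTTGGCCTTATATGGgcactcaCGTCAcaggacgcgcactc

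The full element TGACGTCA began 166 bases before the RefSeq start of Btg2 and 143 bases before that of Dusp1. It was in 2 of the 7 windows, and in 1.56% of 32536 promoter windows of the same length. The shorter TGACG, which every full element contains on both strands, was in 3 of the 7 (Btg2, Dusp1 and Dusp5) and in 17.9% of all windows. Dusp5 held a pair of CArG boxes side by side, CCATATTTGG and CCTTATATGG, which began 82 and 72 bases before its start. A CArG box was in 1 of the 7 windows and in 1.48% of all. The ETS core CCGGAA was in 0 of the 7 and in 12.1% of all. These matches describe letters in a window and do not show that a factor was bound.

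Positions are those of GENCODE M21 on GRCm38, in which all 10 genes are protein-coding. The MAP kinase phosphatases come first. Dusp1 (ENSMUSG00000024190, chromosome 17 from 26505590 to 26562128, minus strand) makes a nuclear phosphatase that acts on ERK, p38 and JNK and is a classical immediate early gene. Its level was 11.2, 22.0 and 49.7 CPM in control exposure replicates 1, 2 and 3 and 58.5, 75.4 and 41.6 CPM in pup exposure replicates 1, 2 and 3. The groups overlapped, because control replicate 3 lay above pup replicate 3. The mean went from 27.6 ± 19.9 to 58.5 ± 16.9 CPM (SD, n = 3 each), with a log2 fold change of 1.09 (SE 0.51, 95% interval -0.015 to 2.20) and an edgeR adjusted p of 0.459. In GENCODE M21 its exons share 11 bases with Ergic1 on the opposite strand. Without control replicate 3 the log2 fold change was 1.79 and without control replicate 1 it was 0.72.

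Dusp4 (ENSMUSG00000031530, chromosome 8 from 34807297 to 34819894, plus strand), a nuclear phosphatase of the same family that ERK induces, was at 2.90, 6.63 and 5.31 CPM in the control libraries and 6.86, 9.07 and 8.90 CPM in the pup libraries. Every pup library was above every control library, the closest being control replicate 2 at 6.63 CPM and pup replicate 1 at 6.86 CPM. On the log2 scale the difference was 0.74 (SE 0.52), with an edgeR adjusted p of 0.592. These values rest on 34 to 74 counts per control library and 128 to 256 per pup library.

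Dusp5 (ENSMUSG00000034765, chromosome 19 from 53529109 to 53542431, plus strand), a nuclear phosphatase that is specific for ERK, was at 2.98, 3.59 and 1.25 CPM in the control libraries and 7.51, 3.83 and 3.81 CPM in the pup libraries. The groups did not overlap, but pup replicates 2 and 3 lay just above control replicate 2. The log2 fold change was 0.94 (SE 0.68), with an edgeR adjusted p of 0.600, and 0.53 without pup replicate 1. Control replicate 3 had 8 counts of this gene. In GENCODE M21 an antisense gene, AC137853.2, which has no row in the deposited counts, shares 547 exonic bases with Dusp5. Of the 50-base words of the Dusp5 transcript, searched on both strands, 20.5% occur in another gene, most often in AC137853.2. Whether the counting used strand is not stated, so reads of this pair cannot be told apart. In the other 9 genes the share of such words was 0%.

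Dusp6 (ENSMUSG00000019960, chromosome 10 from 99263231 to 99267489, plus strand) makes a cytoplasmic phosphatase specific for ERK and is widely used as a readout of ERK activity. It was at 42.3, 32.8 and 42.7 CPM in the control libraries and 27.9, 78.7 and 45.1 CPM in the pup libraries. The control libraries were close together, and the pup group held both the lowest and the highest value of the 6 libraries. The mean went from 39.2 ± 5.57 to 50.6 ± 25.8 CPM (SD, n = 3 each), with a log2 fold change of 0.37 (SE 0.41, 95% interval -0.54 to 1.27) and an edgeR adjusted p of 0.746. Without pup replicate 2 the log2 fold change turned to -0.094.

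Ratios of counts within a library do not depend on scaling. Dusp6 had 3.77, 1.49 and 0.858 counts for each count of Dusp1 in control replicates 1, 2 and 3 and 0.478, 1.04 and 1.08 in the pup replicates. Of the counts of the 4 phosphatase genes, Dusp6 held 71.2%, 50.5% and 43.1% in the control libraries and 27.7%, 47.1% and 45.4% in the pup libraries. Control replicate 1 was the highest and pup replicate 1 the lowest, and the groups overlapped on both measures.

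**Figure D1:**
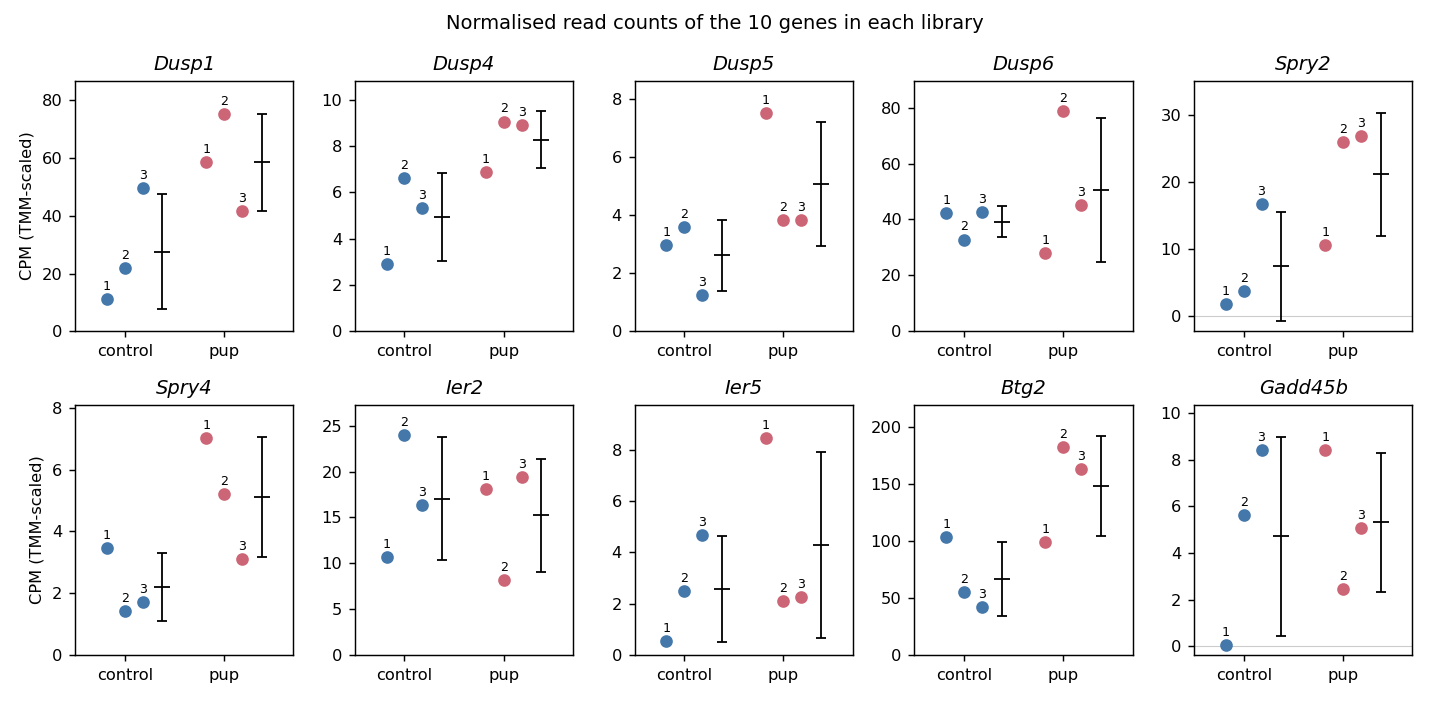
TMM-scaled read counts (CPM, linear axis of its own for each gene) of the 10 genes in the 3 control exposure libraries (blue) and the 3 pup exposure libraries (red), numbered by replicate, with the mean and SD of each group in black. The groups are separated in Dusp4 and Dusp5 and overlap in the other 8 genes, and Gadd45b is at 0.078 CPM in control replicate 1.

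The Sprouty genes follow. Spry2 (ENSMUSG00000022114, chromosome 14 from 105891947 to 105896819, minus strand), which inhibits signalling from receptor tyrosine kinases to Ras, had the largest log2 fold change of the 10 in this fit. It was at 1.80, 3.77 and 16.7 CPM in the control libraries and 10.6, 26.0 and 26.9 CPM in the pup libraries. Control replicate 3 was above pup replicate 1, so the groups overlapped. The mean went from 7.43 ± 8.11 to 21.2 ± 9.14 CPM (SD, n = 3 each), with a log2 fold change of 1.54 (SE 0.72, 95% interval -0.027 to 3.10) and an edgeR adjusted p of 0.459. Without control replicate 3 the log2 fold change was 2.90 (unadjusted p = 0.000959, edgeR adjusted p = 0.482), and without control replicate 1 it was 1.07 (unadjusted p = 0.137, edgeR adjusted p = 0.687). With any other single library left out it lay between 1.26 and 1.86, with edgeR adjusted p of 0.358 to 0.831.

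Spry4 (ENSMUSG00000024427, chromosome 18 from 38586247 to 38601415, minus strand), a relative with the same role, was at 3.45, 1.43 and 1.72 CPM in the control libraries and 7.02, 5.21 and 3.11 CPM in the pup libraries. Only control replicate 1, above pup replicate 3, kept the groups from separating. The difference on the log2 scale was 1.20 (SE 0.68), with an edgeR adjusted p of 0.522. The 2 Sprouty genes differed in which libraries were high. Spry2 had 0.523, 2.63 and 9.73 counts for each count of Spry4 in control replicates 1, 2 and 3, and 1.51, 4.99 and 8.63 in the pup replicates.

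Ier2, Ier5, Btg2 and Gadd45b are early genes outside the feedback loop. Ier2 (ENSMUSG00000053560, chromosome 8 from 84661331 to 84662852, minus strand), a nuclear protein made within minutes of stimulation, was the only gene of the 10 with a negative log2 fold change in this fit. It was at 10.7, 24.0 and 16.4 CPM in the control libraries and 18.1, 8.15 and 19.4 CPM in the pup libraries, so the libraries of the 2 groups were interleaved. The log2 fold change was -0.16 (SE 0.47, 95% interval -1.20 to 0.87), with an edgeR adjusted p of 0.910. It was 0.042 with library totals as the only scaling.

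Ier5 (ENSMUSG00000056708, chromosome 1 from 155096361 to 155099636, minus strand), a relative of Ier2 that is induced by growth factors and radiation, was at 0.549, 2.51 and 4.69 CPM in the control libraries and 8.47, 2.09 and 2.27 CPM in the pup libraries. Pup replicate 1 was high, and pup replicates 2 and 3 were within the control range. Its log2 fold change was 0.75 (SE 0.88), with an edgeR adjusted p of 0.759, and -0.22 without pup replicate 1. There were 7 to 30 counts per control library and 46 to 158 per pup library.

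Btg2 (ENSMUSG00000020423, chromosome 1 from 134075170 to 134079120, minus strand), an antiproliferative gene that promotes mRNA deadenylation and is induced by p53 and by neuronal activity, had the most counts of the 10 genes. It was at 104, 55.2 and 42.0 CPM in the control libraries and 98.9, 182 and 163 CPM in the pup libraries. Pup replicates 2 and 3 lay above all controls, and pup replicate 1 lay just below control replicate 1. The mean went from 67.0 ± 32.4 to 148 ± 43.7 CPM (SD, n = 3 each). This was a 2.21-fold difference, or 1.14 on the log2 scale (SE 0.44, 95% interval 0.19 to 2.10). The unadjusted p was 0.0228 and the edgeR adjusted p 0.424, at rank 829 among the genes tested. In DESeq2, Btg2 had an adjusted p of 0.216. With a single library left out, its log2 fold change lay between 0.87 and 1.61. The unadjusted p in edgeR was 0.0058 without control replicate 1 and 0.0122 without pup replicate 1. Without any other library it was 0.063 to 0.101.

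Gadd45b (ENSMUSG00000015312, chromosome 10 from 80930073 to 80932204, plus strand), a stress sensor that neuronal activity also induces and that has been linked to DNA demethylation, was at 0.078, 5.65 and 8.44 CPM in the control libraries and 8.42, 2.48 and 5.09 CPM in the pup libraries. Control replicate 1 had 1 count, against 63 and 54 in the other control libraries. The log2 fold change was 0.19 (SE 1.0, 95% interval -1.98 to 2.36), with an edgeR adjusted p of 0.954. It was 1.86 in limma-voom and -0.40 without control replicate 1, so no direction can be given.

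**Figure D2:**
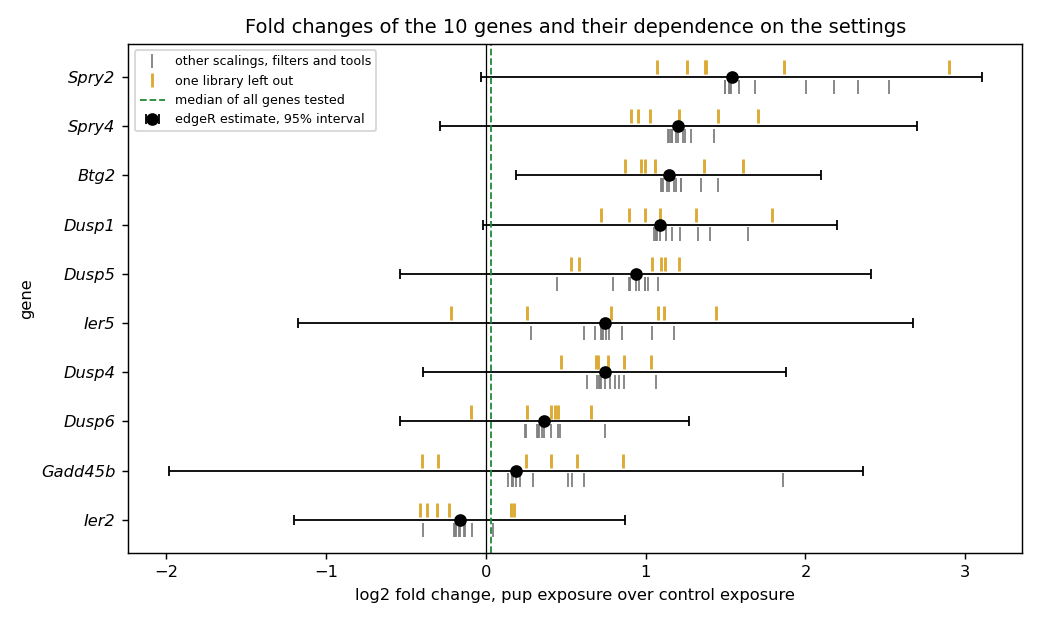
Log2 fold change of each gene, pup exposure over control exposure, with the edgeR estimate and its 95% interval in black, estimates with a library left out as yellow ticks above it and estimates with other scalings, filters, tools or the replicate block as grey ticks below it. The dashed line is the median of all genes tested, 0.030. Of the 10 intervals, that of Btg2 (0.19 to 2.10) lies above 0, and the ticks of Dusp6, Ier2, Ier5 and Gadd45b fall on both sides of 0.

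Per kilobase of annotated exon, Btg2 had the highest mean of the 10 in both groups, at 24.4 ± 11.8 CPM per kilobase in the control libraries and 54.0 ± 15.9 in the pup libraries (SD, n = 3 each). Its range stood apart from that of the next gene in each group. It overlapped that of Ier2 in the controls, where the lowest Btg2 value was 15.3 and the highest Ier2 value 15.8. After control exposure the order below Btg2 was Dusp6 (12.5), Ier2 (11.2), Dusp1 (8.34), Spry2 (3.56), Gadd45b (2.97), Dusp4 (1.81), Dusp5 (1.05), Ier5 (0.788) and Spry4 (0.463 CPM per kilobase), and the ranges of each neighbouring pair overlapped. After pup exposure Dusp1 (17.7 CPM per kilobase) came ahead of Dusp6 (16.1), and Spry2 (10.1) ahead of Ier2 (9.998), each pair with overlapping ranges. Gadd45b, Dusp4, Dusp5, Ier5 and Spry4 followed in the order of the controls, at 3.35 to 1.08 CPM per kilobase. The range of Ier2 stood apart from that of Gadd45b there, while that of Spry2 (from 5.09) overlapped that of Gadd45b (up to 5.30). Averaged over the 6 libraries, the level per kilobase of Btg2 was at the 94.3 percentile of all genes tested and that of Spry4 at the 18.5 percentile.

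The libraries in which the 10 genes were high or low differed from gene to gene. Control replicate 1 was the lowest of the 6 libraries in 5 genes, and pup replicate 2 was the highest in 4. Pup replicate 1 was the highest in 3 genes (Dusp5, Spry4 and Ier5) and the lowest in 1 (Dusp6). Among the controls, Dusp1, Spry2, Ier5 and Gadd45b were lowest in replicate 1 and highest in replicate 3, while Btg2 was highest in replicate 1 and lowest in replicate 3. By the root mean square difference of centred log2(CPM + 1) profiles, Dusp5 and Spry4 were each other's nearest gene among the 10 (0.43), as were Dusp4 with Dusp6 (0.55), Ier5 with Gadd45b (0.53) and Dusp1 with Spry2 (0.60). These distances are descriptions over 6 libraries.

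**Figure D3:**
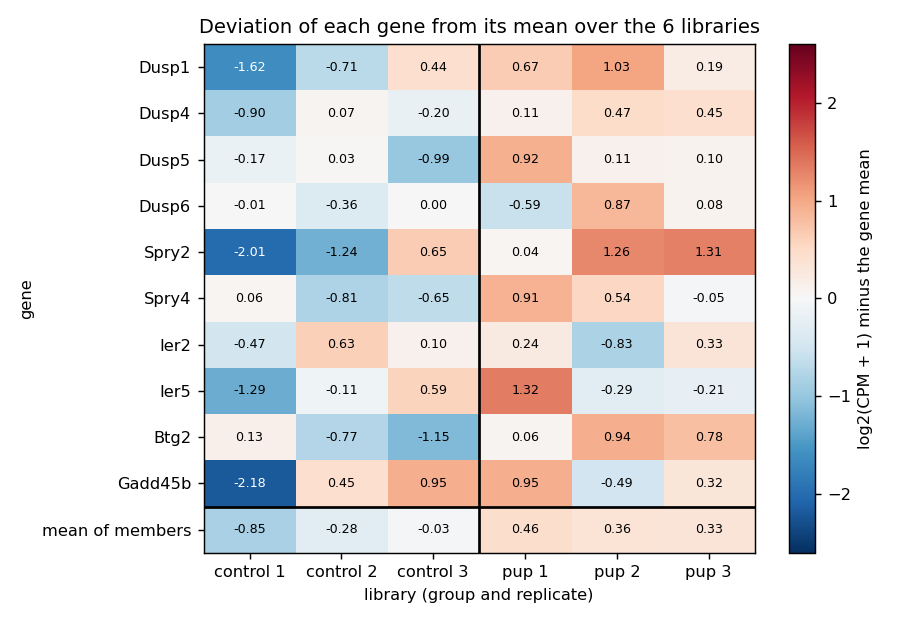
Log2(CPM + 1) of each gene minus its mean over the 6 libraries, by library, with the mean over the 10 genes in the last line. Spry2 runs from -2.01 in control replicate 1 to 1.31 in pup replicate 3, and the mean of the 10 genes lies between -0.85 and -0.027 in the control libraries and between 0.33 and 0.46 in the pup libraries.

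The summed level of the 10 genes was 180, 158 and 189 CPM in the control libraries and 252, 393 and 320 CPM in the pup libraries. Btg2, Dusp1 and Dusp6 make up most of this sum. Outside the 10, the tested genes whose profiles lay closest to their mean profile were Zfp444, Bcl2l13, Pip4k2a, Gm21092 and Smap1, with root mean square differences of 0.059 to 0.098 on the log2 scale. With 15498 genes and 6 libraries, some genes lie close to any profile.

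Other genes of the pathway were read from the same fit. The ERK cascade, from receptors through Ras and Raf to ERK and its RSK kinases, had 27 tested genes of 28, of which 0 were called by edgeR. At an unadjusted p under 0.05 in edgeR, 5 were higher (0 lower), against 6.31% of all genes higher and 4.67% lower. A positive log2 fold change was found in 22 of the 27, against 51.5% of all genes. The groups did not overlap in 8 of the 27, all higher after pup exposure, against 10.1% of all genes. Braf, the Raf kinase that is abundant in neurons, was at 45.9, 40.3 and 36.4 CPM in the control libraries and 87.5, 203 and 74.2 CPM in the pup libraries, with a log2 fold change of 1.57 (SE 0.44, edgeR adjusted p = 0.395). Rps6ka3, an RSK kinase, had a log2 fold change of 1.45 (SE 0.54) and Sos2, an activator of Ras, one of 1.38 (SE 0.52). The adjusted p from edgeR was 0.424 for both. Mapk3 (ERK1), a kinase that DUSP proteins switch off, had a log2 fold change of -0.20 (SE 0.38), with an edgeR adjusted p of 0.857.

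Transcription factors and target genes below ERK had 14 tested members of 16, with 0 called by edgeR. At an unadjusted p under 0.05 in edgeR, 4 were higher (0 lower), against 6.31% of all genes higher and 4.67% lower. In 7 of the 14 the groups did not overlap, all higher after pup exposure, against 10.1% of all genes. The log2 fold change was positive in 9 of the 14, against 51.5% of all genes, and negative in 5. The negative ones were Myc (-0.42), Egr2 (-0.32), Etv1 (-0.23), Fosl1 (-0.099) and Phlda1 (-0.010). Elk4, a partner of serum response factor, was at 23.1, 19.4 and 21.1 CPM in the control libraries and 54.5, 76.5 and 35.8 CPM in the pup libraries (log2 fold change 1.39, SE 0.38, edgeR adjusted p = 0.395). Egr1 was at 18.6, 30.1 and 17.5 CPM and then 42.5, 62.4 and 46.1 CPM (log2 fold change 1.19, SE 0.38, edgeR adjusted p = 0.405). Etv5, an ETS factor that ERK signalling induces (0.97, SE 0.39), and Elk3, a relative of Elk4 (1.36, SE 0.62) had edgeR adjusted p of 0.429 and 0.454. Fos was at 27.9, 37.8 and 26.4 CPM and then 41.6, 55.7 and 40.5 CPM, with a log2 fold change of 0.58 (SE 0.35, edgeR adjusted p = 0.543).

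Relatives of the feedback genes had 12 tested members of 16, with 0 called by edgeR and a median log2 fold change of 0.48. At an unadjusted p under 0.05 in edgeR, 2 were higher (0 lower), against 6.31% of all genes higher and 4.67% lower. The groups did not overlap in 5 of the 12, 3 of them higher and 2 lower in the pup libraries. Over all genes these shares were 10.1% higher and 9.6% lower. Dusp16, a phosphatase of JNK and p38, was at 15.3, 16.9 and 17.8 CPM in the control libraries and 44.8, 42.3 and 26.5 CPM in the pup libraries (log2 fold change 1.18, SE 0.37, edgeR adjusted p = 0.405). Dusp3, an atypical phosphatase, had a log2 fold change of 0.90 (SE 0.38, edgeR adjusted p = 0.447). Errfi1, which inhibits EGF receptors, had one of 0.63 and did not overlap between groups. Dusp14 pointed the other way, at 144, 150 and 146 CPM in the control libraries and 111, 93.0 and 103 CPM in the pup libraries (-0.52, SE 0.34, edgeR adjusted p = 0.573).

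Relatives of the stress genes had 16 tested members of 18, with 0 called by edgeR and a median log2 fold change of 0.17. The groups did not overlap in 2 that were higher and 1 that was lower (10.1% and 9.6% of all genes). At an unadjusted p under 0.05 in edgeR, 2 were higher (0 lower), against 6.31% of all genes higher and 4.67% lower. Those 2 were Tob2, an antiproliferative relative of Btg2 (0.98, SE 0.38), and Mdm2, the p53 ligase (0.85, SE 0.36), with edgeR adjusted p of 0.424 and 0.447. Btg4 and Cdkn1a, a cell cycle inhibitor, had negative values (-1.58, SE 0.86, and -0.60, SE 0.38). Heat shock genes, which tissue handling can induce, had 9 tested members of 10, with 0 called by edgeR and a median of 0.055. The groups did not overlap in 3 of the 9 (Hsph1, Dnaja1 and Hspb1), all higher after pup exposure, against 10.1% of all genes. At an unadjusted p under 0.05 in edgeR, 1 was higher (0 lower). That gene was Hsph1 (0.94, SE 0.41, edgeR adjusted p = 0.447), while the small heat shock gene Hspb1 was at 1.57 (SE 0.83) and Dnajb1, a co-chaperone, at -0.46 (SE 0.38). DESeq2 and limma-voom called 0 genes in each of these 5 lists of related genes, and Braf alone passed in edgeR when genes of low counts were kept.

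**Figure D4:**
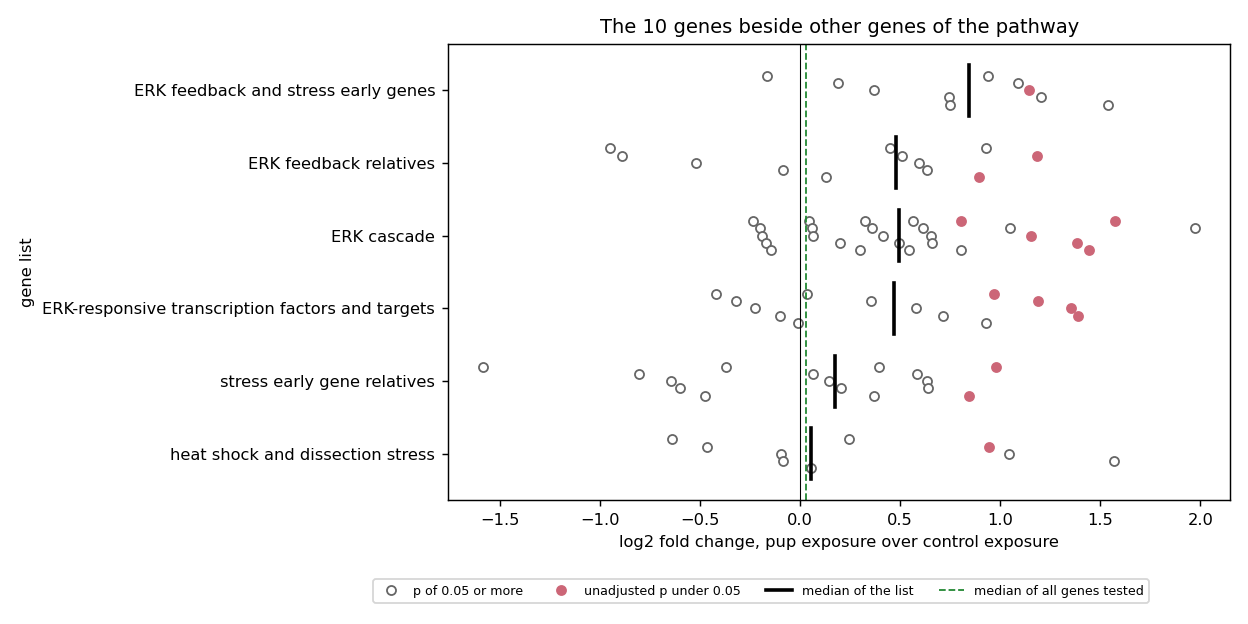
Log2 fold changes, pup exposure over control exposure, of the 10 genes (top line) and of the tested members of 5 lists of related genes; each circle is a gene, filled where its unadjusted p in edgeR is under 0.05, and the bar is the median of the list. The medians run from 0.84 for the 10 genes over 0.49 for the ERK cascade, 0.48 for the feedback relatives and 0.47 for the ERK-responsive genes to 0.17 and 0.055 for the stress and heat shock lists, beside 0.030 for all genes tested.

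Markers of the cell types in the organ were summed in the same libraries, and for 5 of 11 lists the sums did not overlap between groups. The summed level of 9 vomeronasal neuron markers was 2190.0 to 2360.1 CPM in control libraries and 2520.5 to 3048 CPM in pup libraries. Most of this difference lay in Gnb1, at 447 to 638 CPM in control and 699 to 1256 CPM in pup libraries. With Gnb1 left out, the sums of the groups overlapped, so the separation of this list rested on that gene. Of the 9 markers, 6 had a positive log2 fold change, and Omp, Calr4 and Stmn2 had a negative one. For 8 sustentacular (supporting) cell markers the sum was 3875 to 4490 and 1569 to 2286 CPM, with Cbr2, a carbonyl reductase, at 2839 to 3192 and 906 to 1533 CPM. The sums were also separated, with pup libraries lower, for 8 endothelial markers (71.7 to 96.6 and 38.7 to 55.1 CPM), 5 red blood cell genes (205 to 591 and 52.6 to 168 CPM) and 8 markers of immature neurons and progenitors (445 to 540.2 and 314 to 426 CPM). Among the endothelial markers S1pr1 alone was negative (log2 fold change -2.34, edgeR adjusted p = 0.0938), and the other 7 were positive. Of the 6 tested immature neuron and progenitor markers, 4 were negative and 2 positive. Gap43, one of the negative ones, was at 78.6 to 144 CPM in control libraries and 31.0 to 72.2 CPM in pup libraries. For glands, smooth muscle, fibroblasts, myeloid cells, glia and main olfactory neurons the sums overlapped between groups. In all 11 marker lists 0 genes were called by edgeR, while DESeq2 called Cbr2, S1pr1 and Cd68 and limma-voom S1pr1, each lower in the pup libraries. With genes of low counts kept, edgeR called Cyp2g1, S1pr1 and Hbb-bs. No matched marker had 0 counts over the 6 libraries. Fewer cells of a type, less RNA per cell and less RNA on phosphorylated ribosomes cannot be told apart in these libraries, and the part of cell makeup in the values of the 10 genes was not tested. With every library thinned to 10590716 counts, the median log2 fold change of the 10 genes was 0.85.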

How the data were processed

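The authors deposited whole-number read counts per Ensembl gene for 6 libraries, not normalized. Per the submitters' processing notes the genome build is GRCm38; the aligner, the counter, its strand setting and the annotation are not given in the sources examined. Per the labels' protocols, the lysate was immunoprecipitated with an antibody to phosphorylated S6, and cDNA was made with SMARTer and low-input kits. Libraries of unprecipitated RNA were not analysed here. Within a group no pair of libraries matched within sampling noise (chi-square over degrees of freedom of 94.0 to 323), so all 6 were used.

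Names came from GENCODE M21 (36639 of 38561 IDs matched). Testing used the quasi-likelihood method of edgeR 4.0.16 in R 4.3.3 (minimum count 10 in filterByExpr, minimum total 15, TMM, intercept and group) with Benjamini-Hochberg adjustment over all genes tested. Each standard error is the log2 fold change over the root of its F value. Levels per kilobase use the merged exons of each gene. The code was tested on simulated data.

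The 10 genes and all lists were chosen with earlier results of these data known. Named genes were the 10, up to 4 genes with the smallest p in each list, Fos, Egr1, Mapk3, Rps6 and the 5 genes nearest the mean profile; not every one is reported here. Omp, Gnai2, Gnao1 and Obp2a are given as checks of tissue and library. Alternatives were RLE, upper quartile, total and top-gene scaling, other filters, DESeq2 1.42.0, limma-voom (limma 3.58.1) with and without quality weights, a replicate block, thinning and leaving out each library. Medians of the related lists under these settings were added after seeing the data.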

Additional observations from a re-analysis of the deposited data

How the results depend on the processing

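Under 17 alternatives 0 of the 10 genes were called in either direction, and their median log2 fold change stayed between 0.59 and 1.12. Over all genes DESeq2 called 50 higher and 77 lower, edgeR without a filter 61 and 59, limma-voom 1 and 7, and limma-voom with quality weights 1 and 11. At an unadjusted p under 0.05, 3 of the 10 genes were higher (Btg2, Dusp1 and Spry2) with library totals only, totals without the 50 most abundant genes, no filter, DESeq2, both forms of limma-voom and the replicate block. The share of all genes higher at that p was 6.31% in the edgeR fit with TMM. It was not counted under the other settings, so the 3 cannot be set against a background there. Leaving out single libraries gave 0 to 2 of the 10 genes higher at that p, 7 to 10 positive log2 fold changes, and medians of 0.59 to 1.07. Of 170 values of single genes, 7 changed sign: Dusp6 (-0.094) and Ier2 (0.16) without pup exposure replicate 2, Ier2 without control exposure replicate 2 (0.18) and with library totals only (0.042), Ier5 without pup exposure replicate 1 (-0.22), and Gadd45b both without control exposure replicate 1 (-0.40) and with pup exposure replicate 1 dropped (-0.30). The cause was not tested. Over the libraries left out, the highest or lowest values of these genes were 0.66 for Dusp6, -0.41 for Ier2, 1.44 for Ier5 and 0.86 for Gadd45b. Library totals alone moved the median of all genes to 0.31 and totals without the 50 most abundant genes to 0.12; the 10 genes' median lay 0.81 and 0.80 above it. The median of the stress relatives was -0.020 without pup exposure replicate 3, and that of the heat shock genes -0.016 with the stricter filter. Whether the replicate number pairs libraries is not stated. Deviations from the group mean correlated at -0.073, 0.18 and 0.12 between libraries of number 1, 2 and 3. Control replicates 1 and 2 were both closest to pup replicate 2. Deviations within 3 libraries sum to 0, so these correlations cannot settle whether libraries were paired. With the replicate block the median of the 10 genes was 0.90 and 0 genes were called. Fewer than 10 counts in a library for Dusp5, Ier5 and Gadd45b limit their precision.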
